A study of Homo sapiens with 6 samples.

Results

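The stomatin family is described here through its 4 human genes STOM, STOML1, STOML2 and STOML3. Its members were taken as the array rows whose platform annotation names one of these genes as the single gene of the row. There were 4 such rows, 1 per gene, of 48226 rows in all, and 4 genes of 14884 with a named row. The family was selected on the change of STOM between decitabine-treated and untreated arrays, which was among the largest of all genes, so the values of STOM are given as a description with no test. STOML1, STOML2 and STOML3 entered by name.

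The arrays measured total RNA of SUM159, an established human breast cancer line of the triple-negative kind. There were 3 samples of SUM159 cells kept for 72 h in 1 µM decitabine, with fresh medium each day, and 3 samples of SUM159 cells in NT medium for 72 h, called untreated here. Decitabine is a nucleoside drug that enters newly made DNA in place of deoxycytidine and depletes DNA methyltransferases by binding them covalently. The labels name the drug in the treatment protocol as 5'-deoxy-azacytidine and elsewhere as decitabine, the titles of the untreated samples carry the 1 µM dose too, and no label says whether NT medium held the solvent. The data cover 1 line, 1 dose and 1 time, and the labels do not state that replicates were separate cultures, so errors and p-values reflect a spread between arrays that may be only technical.

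Stomatin-family proteins share a domain, named SPFH after stomatin, prohibitin, flotillin and bacterial HflK/C proteins, with which they attach to one face of a membrane, bind its lipids and form oligomers. STOM itself was found as a major protein of the red cell membrane, is lost from the red cells of patients with overhydrated hereditary stomatocytosis, and modulates acid-sensing ion channels and the glucose transporter GLUT1. STOML1 joins the stomatin domain to a sterol carrier domain and lies on late endosomes, STOML2 acts with prohibitins and cardiolipin on the mitochondrial inner membrane, and STOML3 is needed for touch sensation in mouse sensory neurons.

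STOM (Entrez Gene 2040, chromosome 9) was the single family member that was far higher in decitabine-treated cells than in untreated cells. Its log2 expression values were 7.56, 8.01 and 8.02 in decitabine replicates 1, 2 and 3, against 2.99, 2.47 and 2.60 in untreated replicates 1, 2 and 3. All 3 decitabine arrays were high and all 3 untreated arrays low, with a gap of 4.57 between the nearest arrays of the groups, whereas values within a group spanned 0.46 in decitabine and 0.52 in untreated cells. The means were 7.86 ± 0.26 in decitabine and 2.69 ± 0.27 in untreated cells (SD, n = 3 each). The change, decitabine minus untreated, was 5.18 on the log2 scale with a standard error (SE) of 0.24 and a 95% interval of 4.63 to 5.73 from limma, a linear model fitted over all 14884 genes, or 36.2-fold if the deposited scale is log2 as it was read. By size of rise STOM ranked 4 among the 14884 genes, whose median change was -0.017. Groups did not overlap at 20.1% of all genes, a share that is given as background only, since STOM was chosen for this contrast.

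The level of STOM relative to its array moved in the same way. It stood 4.58, 5.61 and 5.65 above the median of all rows of the array in decitabine replicates 1, 2 and 3, and lay close to that median, at -0.04, 0.05 and 0.31 from it, in untreated replicates 1, 2 and 3. No measure of background came with the values, so whether the untreated values stand for transcript or for the floor of the array was not tested, and the size of the rise is that of the deposited values. In bulk RNA, more cells with STOM RNA and more STOM RNA per cell cannot be told apart.

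Both arrays of replicate 1 stood apart from the rest. Their medians over all rows were 2.98 in decitabine and 3.03 in untreated cells, whereas the other arrays had medians of 2.37 to 2.40 in decitabine and 2.29 to 2.42 in untreated cells. The same-numbered pairs gave STOM differences of 4.57, 5.54 and 5.42, so the pair of replicate 1 was the smallest. After quantile normalization, which gives all arrays one distribution, the pair differences of STOM were 5.03, 5.34 and 5.17, and their SD was 0.15 in place of 0.53. The mean difference was 5.18 under both scalings, and 5.48 with both arrays of replicate 1 left out.

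**Figure D1:**
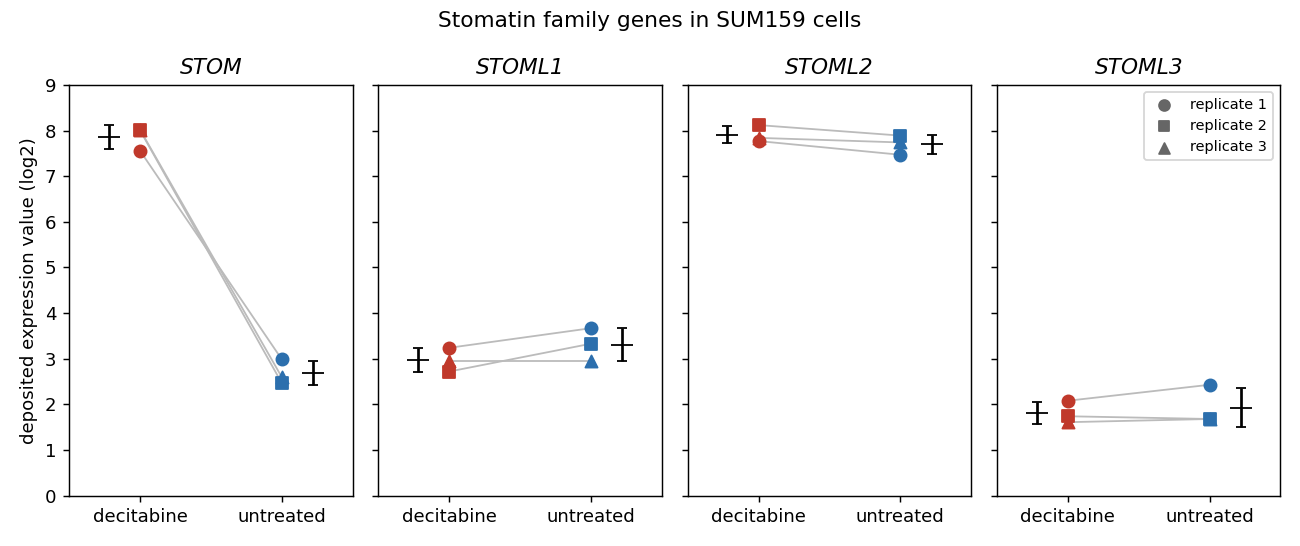
Deposited log2 expression values (vertical axis) of the 4 stomatin family genes in decitabine-treated (red, left of each panel) and untreated (blue, right) SUM159 cells. Marker shapes give the replicate number, grey lines join arrays of the same number, and black bars give the mean ± SD of the 3 arrays. STOM lies at 7.56 to 8.02 in decitabine and 2.47 to 2.99 in untreated cells, while the groups of the other 3 genes overlap or touch.

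None of the paralogues passed the test, against 3.03% of all genes called in either direction at an adjusted p under 0.05 (Benjamini-Hochberg over 14884 genes), and 0 of the 3 had an unadjusted limma p under 0.05, against 13.9% of all genes. STOML1 (9399, chromosome 15), the late endosomal member, had log2 values of 3.24, 2.72 and 2.94 in decitabine replicates 1 to 3, against 3.67, 3.33 and 2.94 in untreated replicates 1 to 3. The decitabine array was lower in 2 of 3 pairs and equal in the third, and the groups overlapped. Its change was -0.35 (SE 0.26, 95% interval -0.94 to 0.25, limma adjusted p = 0.74).

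STOML2 (30968, chromosome 9), the mitochondrial member, had log2 values of 7.77, 8.12 and 7.84 in decitabine replicates 1 to 3, against 7.47, 7.89 and 7.74 in untreated replicates 1 to 3. The decitabine array was the higher in each of the 3 pairs, by 0.30, 0.23 and 0.10, but the groups overlapped. Its change was 0.21 (SE 0.22, 95% interval -0.29 to 0.71, limma adjusted p = 0.891). STOML2 stood 4.79 to 5.72 above the array median in decitabine and 4.44 to 5.47 above it in untreated cells, so its values were far from the low end of the arrays in both groups.

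STOML3 (161003, chromosome 13), the sensory member, had log2 values of 2.08, 1.74 and 1.61 in decitabine replicates 1 to 3, against 2.43, 1.68 and 1.68 in untreated replicates 1 to 3. It lay below the array median on all 6 arrays, by 0.66 to 0.90 in decitabine and 0.60 to 0.74 in untreated cells, and the groups overlapped. Its change was -0.12 (SE 0.27, 95% interval -0.75 to 0.51, limma adjusted p = 0.994), and it was 0.13 without untreated replicate 1, the array with its highest value.

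With the replicate number as a block in the fit, 13.2% of all genes were called and still none of the 3 paralogues. The limma adjusted p was then 0.219 for STOML1, 0.329 for STOML2 and 0.626 for STOML3, and the 95% intervals were -0.73 to 0.04, -0.09 to 0.51 and -0.46 to 0.22. These intervals reach to falls of 0.73 for STOML1 and rises of 0.51 for STOML2, so small changes of either cannot be told from none with 3 arrays a group, while all lie far below the change of STOM.

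Set against its paralogues pair by pair, STOM changed more in every comparison. Its difference exceeded that of STOML1 by 5.00, 6.15 and 5.42 in the pairs of replicates 1, 2 and 3 (mean 5.52 ± 0.58, SD, n = 3 pairs). It exceeded that of STOML2 by 4.27, 5.31 and 5.32 (4.97 ± 0.60), and that of STOML3 by 4.92, 5.48 and 5.49 (5.30 ± 0.33). These differences are descriptions with no test, since STOM was chosen for its change.

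The sequence upstream of the genes was read because decitabine acts on methylation of cytosine in CG dinucleotides; methylation itself was not measured in these samples. The windows below are the 250 bases before an annotated gene start, from RefSeq on GRCh38.p14, written 5′ to 3′ along the gene with each CG in capitals. All 4 genes matched the table of starts, STOM and STOML3 with 1 start and STOML1 and STOML2 with 2 each. STOM is shown as the member far higher after decitabine, and STOML2 as a member with values well above the array median in both groups. STOML3 is shown as the member below that median on every array. STOML1, whose windows are not shown, was also low in both groups, with means of 2.97 in decitabine and 3.31 in untreated cells.
STOM, chr9:121370251-121370500, minus strand: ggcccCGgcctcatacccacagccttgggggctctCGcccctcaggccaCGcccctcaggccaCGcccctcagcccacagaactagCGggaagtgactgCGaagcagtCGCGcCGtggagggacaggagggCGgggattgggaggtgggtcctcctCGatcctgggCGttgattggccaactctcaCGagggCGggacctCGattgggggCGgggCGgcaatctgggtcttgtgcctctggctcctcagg
STOML2, chr9:35103196-35103445, minus strand: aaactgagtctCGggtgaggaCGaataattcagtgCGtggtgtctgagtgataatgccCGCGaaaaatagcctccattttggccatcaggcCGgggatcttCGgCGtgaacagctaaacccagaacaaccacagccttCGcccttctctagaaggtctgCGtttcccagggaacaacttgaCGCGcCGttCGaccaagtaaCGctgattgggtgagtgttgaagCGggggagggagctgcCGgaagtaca
STOML3, chr13:38990832-38991081, minus strand: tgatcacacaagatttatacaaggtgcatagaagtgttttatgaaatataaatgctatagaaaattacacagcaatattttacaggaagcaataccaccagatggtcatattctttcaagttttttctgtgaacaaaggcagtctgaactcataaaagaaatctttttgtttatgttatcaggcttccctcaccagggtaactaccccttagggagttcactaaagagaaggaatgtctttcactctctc

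The window of STOM held 17 CG dinucleotides at 68.8% G and C, and the window shown for STOML2 also held 17, at 54.4% G and C. The other STOML2 start, whose window overlaps the one shown, had 18, and the windows of STOML1 had 24 and 14. STOML3 had none, at 35.2% G and C. Of 35116 upstream windows of all annotated genes, 39% held at least 17 CG, the median window held 11, and 6.06% held none. By count alone STOM was thus the same as a STOML2 window, and lay between the STOML1 windows. Set against the number expected from the C and G of each window, the order differed. The ratio of observed to expected CG was 0.58 for STOM, and 0.93 and 0.84 for STOML2, the window shown being the first. It was 0.74 and 0.58 for the STOML1 windows with 24 and 14 CG.

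Short motifs were also searched in both orientations, with overlapping matches counted. GGGCGG, the GC box bound by SP family factors, occurred 4 times before STOM, 3 times in 1 of the STOML1 windows and nowhere in the windows of STOML2 and STOML3, and 7.63% of all windows held at least 4. Each GGGCGG contains a CG, so these counts overlap with the CG count. CCAAT, the box bound by nuclear factor Y, occurred 3 times before STOM and once in each STOML2 window, and 2.93% of all windows held at least 3. TATAAA, the core of the TATA box, occurred 2 times in the STOML3 window and in no window of the other 3 genes, and 2.05% of all windows held at least 2. These are matches of letters in the window, and binding was not measured.

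**Figure D2:**
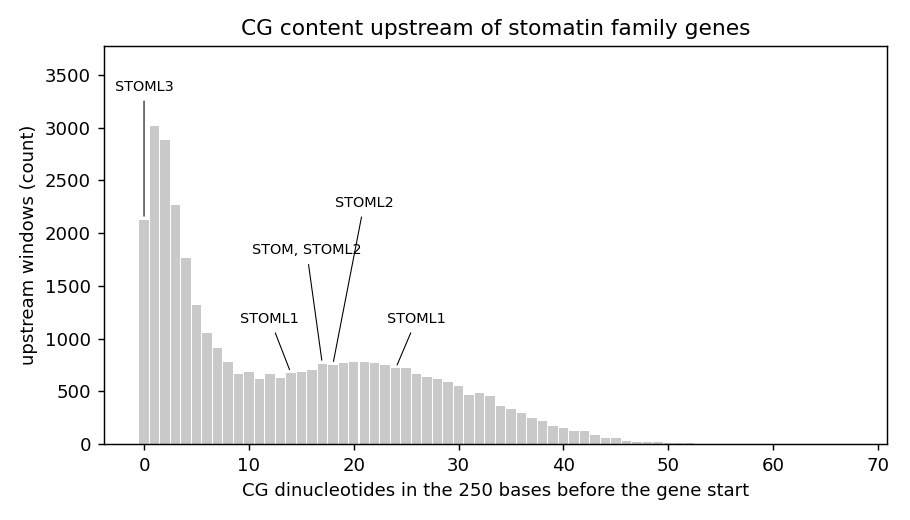
Number of upstream windows (vertical axis, 35116 in all) by the number of CG dinucleotides in the 250 bases before the gene start (horizontal axis), with the windows of the 4 stomatin family genes marked. STOM and a STOML2 window both lie at 17, the STOML1 windows at 14 and 24, and STOML3 at 0.

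The wider SPFH family includes prohibitins, flotillins and erlins. Of 6 such relatives with a named row 0 rose and 0 fell, against 2.01% and 1.02% of all genes; with the replicate block 0 rose and 1 fell, against 7.79% and 5.37% of all genes. By limma 1 of the 6 had an unadjusted p under 0.05, against 13.9% of all genes. Their median change was -0.13, beside -0.017 over all genes. ERLIN1, an endoplasmic reticulum protein that takes part in the degradation of IP3 receptors and in sterol control, had the largest change. Its log2 values were 7.82, 7.84 and 7.91 in decitabine replicates 1 to 3, against 8.57, 8.65 and 8.54 in untreated replicates 1 to 3. The groups did not overlap, which was so at 20.1% of all genes. The change of -0.73 (SE 0.18) missed the threshold without a block (limma adjusted p = 0.0859) and passed it with the replicate block (limma adjusted p = 0.0168).

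The other relatives had changes between -0.34 and 0.36 that did not pass the test in either fit. The prohibitin PHB1, a scaffold of the mitochondrial inner membrane that binds STOML2, had a change of 0.36 (SE 0.19, limma adjusted p = 0.5), and its partner PHB2 one of 0.05 (SE 0.18). The flotillins FLOT1 and FLOT2, which form raft domains at the plasma membrane, had changes of -0.32 (SE 0.20) and -0.34 (SE 0.21). ERLIN2, the partner of ERLIN1, had 0.06 (SE 0.21). Like those of ERLIN1, the groups of PHB1, FLOT1 and FLOT2 did not overlap. The gaps between the nearest arrays were 0.21, 0.02 and 0.01, beside 0.63 for ERLIN1. The groups of PHB2 and ERLIN2 overlapped.

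**Figure D3:**
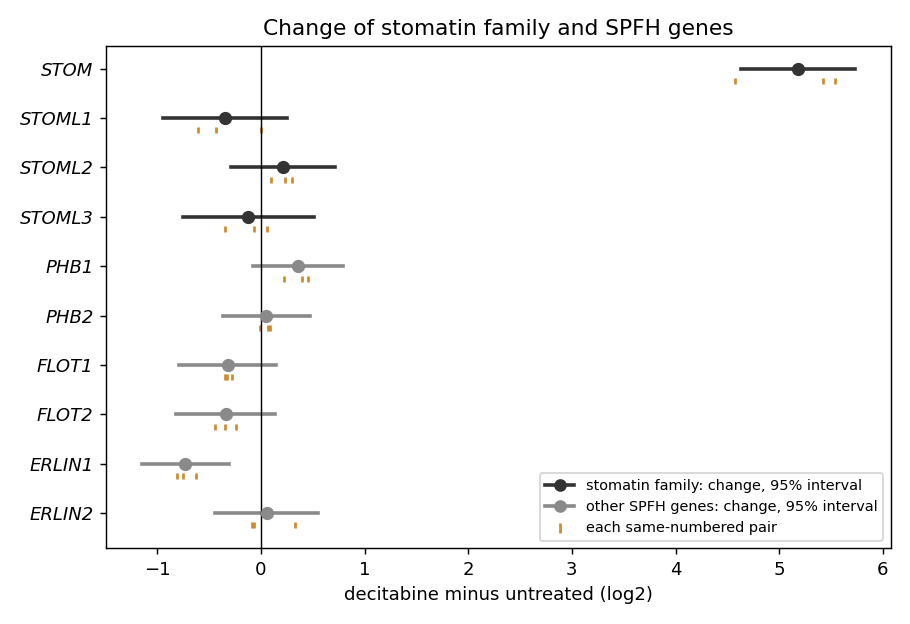
Change, decitabine minus untreated on the log2 scale (horizontal axis), of the 4 stomatin family genes (dark) and of 6 other SPFH genes (grey), with 95% intervals from limma without a block, and the difference in each same-numbered pair (orange ticks). STOM lies at 5.18, and the other 9 genes lie between -0.73 and 0.36.

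Partners of the stomatin proteins were taken from lists of genes. Of 15 listed channels and transporters that stomatin-domain proteins bind or modulate, or relatives of these, 7 had a named row, and 0 rose and 0 fell by limma (1 at an unadjusted p under 0.05, median change -0.02). With the block 0 rose and 1 fell. Over all genes 2.01% rose, 1.02% fell and 13.9% had an unadjusted p under 0.05, while 7.79% rose and 5.37% fell with the block. Counts in so short a list are near these shares. GLUT1 (SLC2A1), band 3 (SLC4A1) and ASIC3 had no named row and were not analysed here. PIEZO1, a mechanically gated cation channel whose sensitivity STOML3 tunes in mouse cells, had log2 values of 5.20, 5.00 and 5.59 in decitabine replicates 1 to 3 and 5.73, 5.93 and 6.35 in untreated replicates 1 to 3. Its groups were 0.14 apart at the nearest arrays, and groups did not overlap at 20.1% of all genes. The change of PIEZO1, -0.74 (SE 0.25), was the largest of its list. It missed the threshold without a block (limma adjusted p = 0.216) and passed it with the replicate block (limma adjusted p = 0.0222).

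Of 16 listed partners of STOML2 at the mitochondrial inner membrane 12 had a named row, and 0 rose and 0 fell by limma (2 at an unadjusted p under 0.05, median change 0.04), while 1 rose and 1 fell with the block. Over all genes 2.01% rose and 1.02% fell without the block, and 13.9% had an unadjusted p under 0.05. With the block 7.79% rose and 5.37% fell, so these counts are near the shares of all genes. The largest change was that of OMA1, a stress-activated protease that cleaves OPA1, at -1.04 (SE 0.32, limma adjusted p = 0.158, and 0.00717 with the block). SPG7, a subunit of the m-AAA protease, had 0.54 (SE 0.20, limma adjusted p = 0.247, and 0.0483 with the block).

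Among 8 measured of 11 listed genes of caveolae and raft scaffolds 1 rose and 0 fell with and without the block (median change 0.14), against 2.01% and 1.02% of all genes without it and 7.79% and 5.37% with it. CAVIN2, a coat protein of caveolae, had log2 values of 6.51, 7.11 and 6.98 in decitabine replicates 1 to 3, against 4.63, 5.37 and 5.30 in untreated replicates 1 to 3. It was higher in all 3 decitabine arrays than in any untreated array, while groups did not overlap, in either direction, at 20.1% of all genes. Its change was 1.77 (SE 0.28, limma adjusted p = 0.0158). The call was lost without decitabine replicate 2 (limma adjusted p = 0.082), decitabine replicate 3 (0.0777) or untreated replicate 2 (0.0525), and with median centring (0.0526). Caveolins CAV1 and CAV2 had no named row.

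The red cell, in which STOM was first found, has a membrane skeleton of spectrin, ankyrin and adducin. Of 18 listed genes of the red cell membrane skeleton 8 had a named row, and 0 rose and 0 fell by limma (0 at an unadjusted p under 0.05, 1 rose with the block, median change 0.11). ADD3, an adducin that caps actin filaments, had the largest change there, 0.75 (SE 0.39, limma adjusted p = 0.487, and 0.027 with the block). Of 19 listed erythroid markers 6 had a named row, and 0 rose and 0 fell by limma in either fit (0 at an unadjusted p under 0.05, median change -0.03). The mean level of these 6 was 2.73 to 3.05 in decitabine and 2.52 to 3.23 in untreated arrays, on the log2 scale, and the erythropoietin receptor EPOR had the largest change, -0.28 (SE 0.21, limma adjusted p = 0.737). No globin gene had a named row. Of 14 listed markers of olfactory sensory neurons, in which STOML3 is known in mouse, 12 had a named row, and 0 rose and 0 fell by limma in either fit (1 at an unadjusted p under 0.05, median change -0.09). The largest change there was that of EBF1, a transcription factor, at -0.85 (SE 0.36, limma adjusted p = 0.338). Over all genes 2.01% rose, 1.02% fell and 13.9% had an unadjusted p under 0.05, while 7.79% rose and 5.37% fell with the block. At these shares, counts of 0 or 1 in the red cell, erythroid and olfactory lists say little about the lists.

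Markers of other cell types and of the line were read in the same way. By limma without a block 0 of 4 measured leukocyte markers (of 11 listed, 1 at an unadjusted p under 0.05, median change -0.08) and 0 of 3 measured fibroblast markers (of 8 listed, 0 at an unadjusted p under 0.05, median change 0.04) were called. With the block the leukocyte marker CD14 was called at 0.72 (SE 0.20 and limma adjusted p = 0.115 without the block, 0.0247 with it) and the fibroblast marker THY1 at 0.82 (SE 0.42 and limma adjusted p = 0.473 without, 0.013 with it). Of all genes 3.03% were called without the block and 13.2% with it, and 13.9% had an unadjusted p under 0.05. Lists this short cannot be told from those shares. Mean levels over a list were 2.61 to 3.06 in decitabine and 2.47 to 3.17 in untreated arrays for the leukocyte list, and 2.59 to 3.02 in decitabine and 2.27 to 3.03 in untreated arrays for the fibroblast list. The leukocyte marker PTPRC and the collagen genes COL1A1, COL1A2 and COL3A1 had no named row. The part of such cells in the change of STOM was not tested.

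Of 8 measured luminal breast markers KRT18 had the highest mean value over the 6 arrays (7.82) and the estrogen receptor ESR1 the lowest (1.95), and 0 were called by limma (1 at an unadjusted p under 0.05, median change 0.06), while 2 rose with the block, against 7.79% of all genes. Without the block 3.03% of all genes were called, and 13.9% had an unadjusted p under 0.05. EPCAM, an epithelial adhesion protein, had the largest change, 1.10 (SE 0.31, limma adjusted p = 0.127, and 0.00829 with the block), and the other one was the keratin KRT19 at 0.63 (SE 0.35, limma adjusted p = 0.548, and 0.038 with the block). Of 9 measured markers of basal and mesenchymal-like lines FN1 had the highest mean value (10.84) and KRT14 the lowest (2.50), and 1 rose and 2 fell (median change 0.18), against 2.01% and 1.02% of all genes. With the block 1 rose and 3 fell, against 7.79% and 5.37% of all genes, the added one being ZEB1, a transcriptional repressor of epithelial genes, at -0.51 (SE 0.26, limma adjusted p = 0.48, and 0.0438 with the block). The basal keratin KRT5 rose by 1.75 (SE 0.37, limma adjusted p = 0.0497), and the receptor tyrosine kinases AXL and EGFR changed by -1.79 (SE 0.19, limma adjusted p = 0.00361) and -1.15 (SE 0.19, limma adjusted p = 0.0195). AXL kept its call under each of 13 other settings, whereas EGFR lost it under 7 of 13 (highest limma adjusted p 0.12, without untreated replicate 2) and KRT5 under 6 of 12 (0.197, without the same array).

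Of 23 measured genes beside a family member 0 passed the test by limma without a block, against 3.03% of all genes. At that share the count says little about the neighbours. An unadjusted limma p under 0.05 was found for 1 of 5 beside STOM, 1 of 7 beside STOML1, 1 of 5 beside STOML2 and 0 of 6 beside STOML3, against 13.9% of all genes. The 5 nearest protein-coding genes on each side were taken from the RefSeq gene order of GRCh38.p14, and 5 of the 10 beside STOM on chromosome 9 had a named row. GSN, which encodes the actin-severing protein gelsolin and is the next gene on one side, had log2 values of 3.32, 2.78 and 2.79 in decitabine replicates 1 to 3, against 3.32, 2.54 and 2.31 in untreated replicates 1 to 3. The groups overlapped, and the change was 0.24 (SE 0.31, limma adjusted p = 0.948). GGTA1, the next protein-coding gene on the other side, had no named row and was not analysed here.

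The other measured neighbours of STOM had changes of -0.80 to -0.03. TRAF1, an adaptor of tumour necrosis factor receptors, had the largest, -0.80 (SE 0.33, limma adjusted p = 0.326), and was the one called with the replicate block (limma adjusted p = 0.0454). Changes were -0.35 (SE 0.20) for the complement component C5, -0.30 (SE 0.26) for the centrosomal protein CNTRL and -0.03 (SE 0.39) for MORN5. Changes were -0.57 to 0.38 among the neighbours of STOML1, -0.20 to 0.62 among those of STOML2 and -0.66 to 0.29 among those of STOML3. With the block LOXL1 beside STOML1 (-0.57), VCP beside STOML2 (0.62) and LHFPL6 beside STOML3 (-0.66) were called, with limma adjusted p-values of 0.0487, 0.035 and 0.0223; these 3 are named after their values were seen. With TRAF1 this made 4 of 23 measured neighbours called with the block, against 13.2% of all genes.

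**Figure D4:**
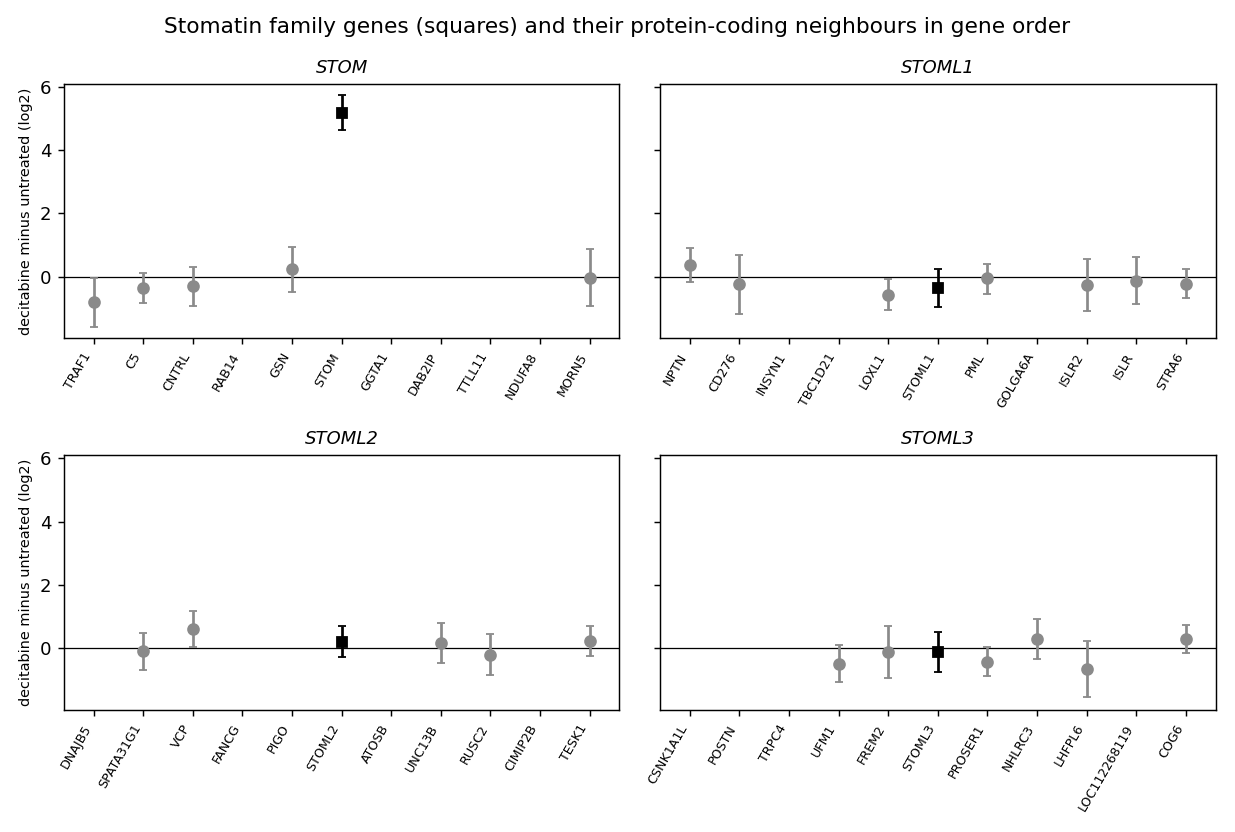
Change, decitabine minus untreated on the log2 scale (vertical axis), of the 4 stomatin family genes (black squares) and of the protein-coding genes around each in gene order (grey circles), with 95% intervals from limma without a block. Genes without a point had no named row, and the horizontal axis shows order, not distance. STOM lies at 5.18, and the circles lie between -0.80 and 0.62.

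The genes nearest to STOM in pattern were found over the 6 arrays, after each gene was centred on its own mean, by the root mean square difference from STOM. The 5 nearest of 14883 genes began with TKTL1, a transketolase-like protein (0.40 on the log2 scale), MAEL, a piRNA pathway factor of germ cells (0.41), and HORMAD1, which acts on the axes of meiotic chromosomes (0.42). MT1L, a locus of the metallothionein family (0.45), and GCNA, a germ cell nuclear protein (0.48), followed. Since the measure follows the contrast for which STOM was chosen, this is a description, and metallothionein genes are close copies of each other, so the value of MT1L is uncertain.

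Within the decitabine group the order of deposited values differed from that of STOM. Decitabine replicate 1 had the lowest STOM value of its group, at 7.56, but the highest value of its group for MAEL (6.77), HORMAD1 (7.65), MT1L (6.04) and GCNA (7.34). For TKTL1 it had the middle value (8.16). That array also had the highest median of its group. Measured from the array median, decitabine replicate 1 was not the highest for any of them. Replicates 1, 2 and 3 then stood at 3.79, 3.79 and 4.06 for MAEL and 4.67, 4.72 and 4.87 for HORMAD1. They stood at 3.06, 3.49 and 3.36 for MT1L, 4.36, 4.49 and 4.71 for GCNA, and 5.18, 5.33 and 6.26 for TKTL1. The changes were 5.61 (TKTL1), 4.88 (MAEL), 5.45 (HORMAD1), 4.46 (MT1L) and 4.56 (GCNA), beside 5.18 for STOM. By Pearson's r over the same 6 arrays the 5 genes had 0.988 to 0.994 and ranked 18 to 50, and 0 of them were among the first 5 by r. Those first 5 were MCM10, TDRD12, BOK-AS1, TNS4 and DNMT3B, with r of 0.997 to 0.999, and r exceeded 0.95 for 342 genes.

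The sequence windows of the same 5 genes were read where the table of starts held them. TKTL1 had 13 and 6 CG dinucleotides in its windows, MAEL had 51 and 22, and GCNA had 18, beside 17 for STOM. HORMAD1 and MT1L were not matched.

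**Figure D5:**
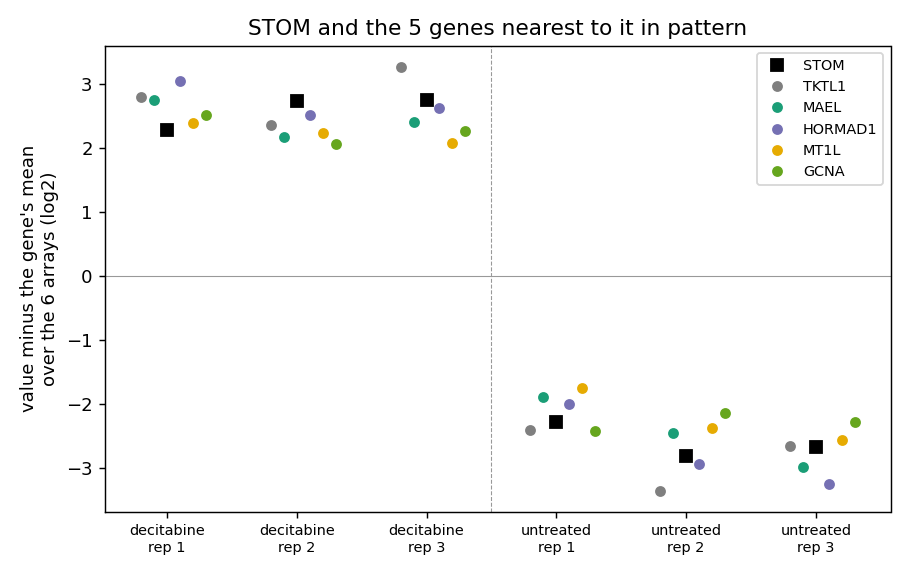
Log2 values of STOM (black squares) and of the 5 genes nearest to it (coloured circles, moved sideways for legibility), each minus the mean of that gene over the 6 arrays (vertical axis), by array (horizontal axis). All 6 genes lie above 0 on the decitabine arrays and below 0 on the untreated arrays, and STOM is the lowest of the 6 on decitabine replicate 1.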

How the data were processed

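The authors deposited 1 table of values for 6 single-colour arrays of biotin-labelled total RNA, for which the submitters' processing notes name the Transcriptome Analysis Console. Its release and the normalization were not given in the sources used here, nor was a build. Values deposited by the authors were taken to be log2 expression, since all are positive, start at 0.17 and stay in the range of log2 array summaries; the base is not stated. Rows were named through the platform annotation and RefSeq (GRCh38.p14): 16098 of 48226 rows carried 1 symbol, 32128 none and 0 several. The row of highest mean stood for each of 14884 genes, and each member had 1 row. Sequences are from RefSeq.

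Groups were compared with limma 3.58.1 (lmFit, eBayes, two-sided) in R 4.3.3 on all 6 arrays with no covariate, with Benjamini-Hochberg adjustment. A gene rose or fell, in the wording used, if its adjusted p was under 0.05. The fit was also run on simulated data drawn with no effect of replicate, so that run does not cover the pairing of these arrays. Deviations from the group means correlated at 0.682, 0.595 and 0.558 between same-numbered arrays, so the numbers in the titles were taken to pair the samples. Between the others they correlated at -0.483 to -0.006. Deviations within a group cancel out, so these tend to be negative where the same-numbered ones are positive. The main fit does not use the pairing. Its SEs for STOML1, STOML2 and STOML3 were 0.26, 0.22 and 0.27, beside 0.16, 0.12 and 0.14 with the block. Blocked values are given for the paralogues and where they change a call. The gene lists name relatives, partners and markers of the family and of other cell types. Named genes are the members, the SPFH relatives, the neighbours of STOM, the 5 genes nearest to STOM, and from each list the genes called or else the largest change, with genes added because the block changed their call. The members and lists were chosen with earlier results of these data known. The number of arrays limits the precision.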

Additional observations from a re-analysis of the deposited data

How the results depend on the processing

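STOM changed by 5.07 to 5.33 without any single array and by 5.17 to 5.48 under the other settings. All were rises, the direction for which STOM was chosen. The replicate block, the intensity trend, the fit over all rows and the omission of dim genes keep the same difference of group means. They could not move the change of STOM from 5.18, nor that of any paralogue kept in the fit. STOM was kept among the brighter genes by its mean over all 6 arrays, which includes its high decitabine values. STOML1 changed by -0.53 to -0.17 and STOML2 by 0.09 to 0.30 without single arrays. STOML3 changed by -0.26 to 0.13, the positive value being that without untreated replicate 1. The lowest limma adjusted p over all settings was 0.219 for STOML1, 0.329 for STOML2 and 0.626 for STOML3, with the replicate block in each case. STOML1 and STOML3 are dim and were not tested when the dimmer 50% of genes was left out. The difference of STOM from a paralogue was 5.21 to 5.78 (STOML1), 4.79 to 5.31 (STOML2) and 5.20 to 5.48 (STOML3) without single pairs, and 5.55, 4.96 and 5.26 after quantile normalization. Of all genes 299 rose and 152 fell without a block. Counts were 1159 and 800 with the replicate block, 551 and 387 with quantile normalization, 557 and 432 with the dimmer 50% left out, 189 and 78 over all rows, 694 and 468 with an intensity trend, and 280 and 91 with median centring; without single arrays 95 to 321 rose and 33 to 156 fell. The cause of these shifts was not tested. Of the listed genes 2 rose and 2 fell without a block, and over the settings 0 to 8 rose and 1 to 6 fell, most with the replicate block. Calls of neighbours ranged from 0 to 1 upward and 0 to 3 downward. No signal over background came with the values, so the depth of the dim levels of STOM in untreated cells and of STOML3 is unknown.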
